A study of Mus musculus with 4 samples.

Results

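Semaphorins are guidance proteins, and plexins and neuropilins are the cell-surface receptors that read them. The genes described here are the 31 entries of the deposited table, of 27178 genes in all, whose symbol is that of a semaphorin (20 genes, the ligands), a plexin (9 genes) or a neuropilin (2 genes, which with the plexins make 11 receptors). The family was picked with earlier results of these data known, and its members by symbol, with no threshold on their values. The cells came from the gut of mouse embryos carrying the Wnt1-tdT reporter, which is driven from Wnt1 and marks the neural crest lineage, at 11.5 days post coitum. There were 2 libraries from cells at the wavefront, the leading edge of the crest cells that colonise the gut, and 2 from cells trailing 1 to 1.5 mm behind it. Both groups carried the same reporter and were sorted for it by flow cytometry after collagenase and dispase digestion, a gate that takes crest derivatives as a class and does not divide progenitors, young neurons and glia. The comparison asked how mRNA differed between the 2 positions. Whether the 2 replicates of a position came from different embryos is not stated, so the p-values reflect the variation among 4 libraries, part of which may be technical.

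Class 3 semaphorins are secreted. Most of them bind a neuropilin, which holds the ligand, and signal through an A-type plexin, which changes the cytoskeleton and adhesion of the cell that receives the signal. The other classes in vertebrates are bound to the membrane and mostly bind plexins directly, class 4 those of type B and class 6 those of type A. In the mouse embryo, Sema3A protein made by the hindgut wall delays the entry of crest cells and extrinsic axons, and in humans the SEMA3C and SEMA3D locus has been linked to Hirschsprung disease, in which the distal gut lacks ganglia.

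The libraries were shallow. Reads recovered from the deposited CPM (the reads of each gene scaled to 1 fixed total per library) came to 543070 and 260217 in wavefront replicates 1 and 2 and 517000 and 452142 in trailing replicates 1 and 2. Ribosomal RNA took 15.6% and 55.5% of the wavefront reads and 24.4% and 26.1% of the trailing reads, so that wavefront replicate 2 kept 114972 reads outside ribosomal RNA. All 8 crest and enteric progenitor markers looked at had a read somewhere. Their sum was 4293 and 2174 CPM outside ribosomal RNA at the wavefront and 3645 and 2952 behind it. Some were sparse. Foxd3 had 1 and 2 reads at the wavefront against 1 and 6 behind it. Tfap2a had 7 and 0 against 4 and 5, and Tfap2b 5 and 2 against 7 and 11. Ret, the receptor of GDNF, had 1413 and 155 reads at the wavefront against 864 and 545 behind it, Ednrb 236 and 51 against 269 and 167, Erbb3 27 and 15 against 58 and 24, and Sox10 14 and 4 against 22 and 26. In bulk RNA, fewer cells of a type and less RNA per cell cannot be told apart.

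Of the 31 genes, 29 had a read in at least 1 library, but 1 gene held most of the reads. Nrp1, the neuropilin that binds Sema3A and the growth factor VEGF-A, had 1257 of the 2192 reads of the whole family. The 11 receptors had 1943 reads and the 20 ligands 249. There were 23 and 19 members with a read in the wavefront libraries and 26 and 24 in the trailing libraries, where the library with the fewest members was also the shallowest. Sema3g and Sema7a had 0 reads in all 4 libraries, where 3 reads, the limit that a count of 0 allows, correspond to 5.52 and 11.5 CPM in the wavefront libraries and 5.80 and 6.64 CPM in the trailing libraries.

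Relative to exon length, which makes levels comparable between genes, Nrp1 stood first in each of the 4 libraries. It reached 91.5 and 38.5 CPM per kilobase of exon at the wavefront and 71.8 and 70.1 behind it, and its lowest library lay above the highest value of any other member, 13.4 CPM per kilobase of Plxnb2 in wavefront replicate 1. Plxnb2, a type B plexin, Plxna4, a type A plexin that works with neuropilins, Nrp2, the second neuropilin, Plxnb1, Sema3d and Plxna1 followed, with means over the 4 libraries of 9.87, 6.50, 5.85, 5.21, 4.97 and 4.81 CPM per kilobase. Neighbours among these 6 genes overlapped in their ranges over the libraries, so their order is not separated from the spread. Plxna1, whose lowest library was at 3.63 CPM per kilobase, lay above Sema6a, the next gene, whose highest was at 3.53. From Sema6a downward, every neighbouring pair overlapped. Sema3d was the ligand with the highest mean, and the other ligands had means of 2.45 CPM per kilobase or less. Its level was 6.21 and 7.60 at the wavefront and 2.48 and 3.60 behind it, where Sema4d, at 3.27, was above it in trailing replicate 1.

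**Figure D1:**
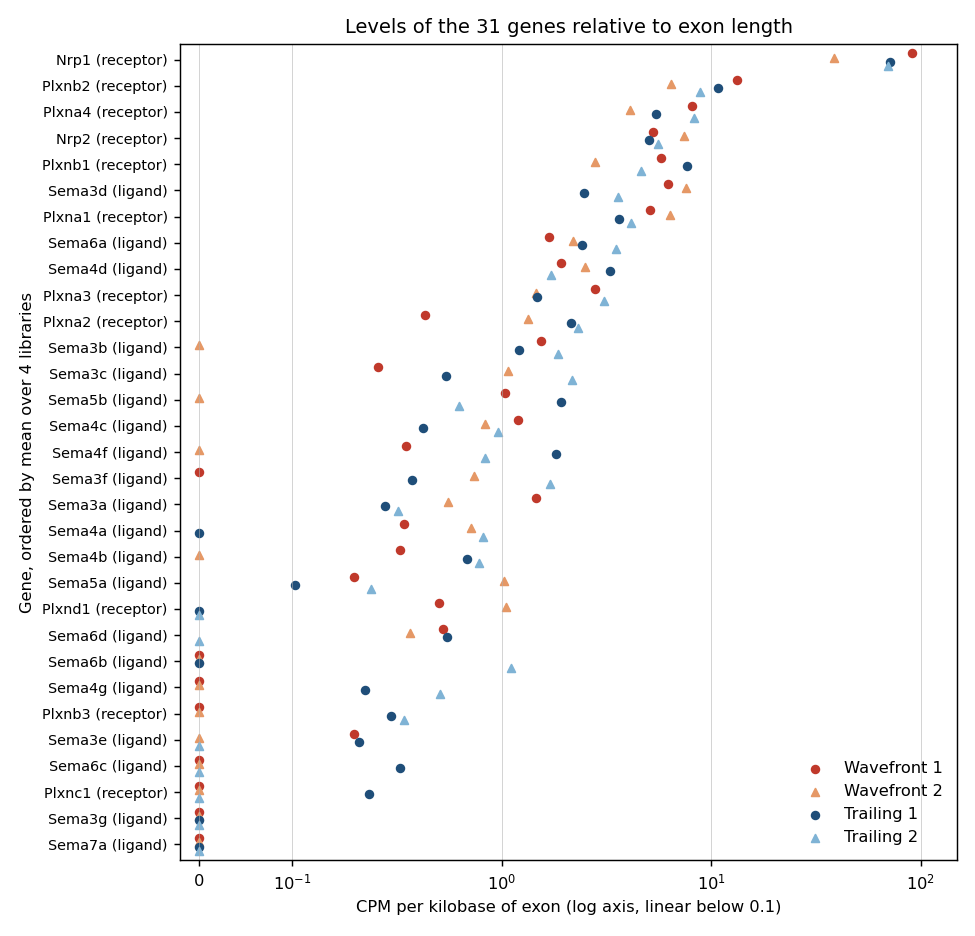
Level of each of the 31 genes in CPM per kilobase of exon (horizontal axis, logarithmic above 0.1 and linear below) in the 4 libraries, with genes ordered from top to bottom by their mean. Nrp1 lies between 38.5 and 91.5, apart from the other members, and Sema3d is the ligand with the highest mean.

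The promoters of the most abundant receptor and the most abundant ligand are shown because the genes differ widely in level and their start regions differ in composition. Both run 5′ to 3′ on the plus strand from 250 bases before to 50 bases after the RefSeq start (build GRCm38.p6), Nrp1 at chr8:128358823-128359122 and Sema3d at chr5:12382916-12383215. The GENCODE M21 gene start lies upstream of this window for Nrp1 and downstream of it for Sema3d. Capitals mark CpG dinucleotides.
Nrp1: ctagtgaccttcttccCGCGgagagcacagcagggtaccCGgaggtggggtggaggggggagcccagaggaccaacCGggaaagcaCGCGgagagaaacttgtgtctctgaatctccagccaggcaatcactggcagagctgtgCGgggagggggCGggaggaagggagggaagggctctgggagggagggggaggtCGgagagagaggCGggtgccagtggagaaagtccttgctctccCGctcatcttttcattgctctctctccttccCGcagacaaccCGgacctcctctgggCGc
Sema3d: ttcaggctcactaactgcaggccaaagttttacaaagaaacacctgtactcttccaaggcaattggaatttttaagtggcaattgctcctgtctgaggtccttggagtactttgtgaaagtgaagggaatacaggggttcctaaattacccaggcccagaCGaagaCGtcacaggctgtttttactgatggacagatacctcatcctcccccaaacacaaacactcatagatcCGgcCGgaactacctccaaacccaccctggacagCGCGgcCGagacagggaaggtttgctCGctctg
The Nrp1 window held 14 CpG and 64.0% G and C, and the Sema3d window 8 CpG and 49.7%.

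Of the 31 genes, 26 had a RefSeq promoter entry (Plxna1, Plxna4, Sema3b, Sema3f and Sema6a did not). The 8 matched genes with 20 or more reads had a median of 21.5 CpG per 300-base window and the 18 with fewer reads a median of 23. The median was 7 over all 27025 promoters and 21 over the 10823 promoters of genes with a read in these libraries. The motif GGGCGG, known as the GC box, was found in 20 of the 26 windows (76.9%, beside 35.9% of all promoters and 64.0% of those of genes with a read). The TATA box motif TATAAA was found in 0 of 26, beside 14.2% of all promoters and 7.35% of those of genes with a read. The SOX-type motif ACAAAG was found in 7 of 26 (26.9%, beside 18.7% and 13.7%), among them Sema3d with 2 matches. The E-box motif CANNTG was found in 14 of 26 (53.8%, beside 72.1% and 63.2%). Motifs were searched on both strands, each by itself. These are matches of letters in a window, and no binding was measured.

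No member passed the test between the positions. Limma on log2(CPM + 1) tested 26 of the 31 members and called 0 at a Benjamini-Hochberg adjusted p under 0.05, with 0% of all 12519 genes called and a smallest adjusted p among members of 0.680. Of the 26, 2 had an unadjusted p under 0.05, Sema3d and Plxnd1, both higher at the wavefront, beside 6.85% of all genes (1.07% higher and 5.78% lower). A count test was run beside it on the recovered reads, with the quasi-likelihood method of edgeR, and could test 10 members, which are 8 receptors and the ligands Sema3d and Sema6a. It called 0 of the 10, where 1.74% of all 5759 genes tested were called, and 2 of the 10 had an unadjusted p under 0.05 (1 higher, 1 lower), where 9.9% of all genes did (3.98% higher, 5.92% lower). DESeq2 also called 0 members, and so did an adjustment of the unadjusted p-values in the authors' deposited table. The members' median log2 fold change was 0.14 in the count test, beside 0.01 for all genes, and -0.24 in limma, beside -0.35. With 2 libraries a group the intervals are wide, and a p that misses the threshold does not show that levels were alike.

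Nrp1, the neuropilin with most of the reads, did not differ between the positions beyond its spread. It had 486 and 98 reads at the wavefront against 363 and 310 behind it. Scaled to library sizes with TMM factors (scaled CPM, used unless another scale is named), these were 777 and 550 at the wavefront and 651 and 609 behind it. The trailing values lay between the wavefront values. The log2 fold change, wavefront over trailing, was 0.07 (95% interval -0.63 to 0.77, edgeR adjusted p = 0.975). This edgeR interval reaches to less than 2-fold in either direction, but the limma interval was wider and reaches past 2-fold both ways. In unscaled CPM the 2 wavefront libraries stood at 895 and 377 and the 2 trailing libraries at 702 and 686. The log2 fold change in limma was -0.26 (95% interval -1.78 to 1.26). Of the summed neuropilin reads, Nrp1 gave 93.5% and 81.0% at the wavefront and 92.1% and 91.2% behind it.

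Nrp2, the neuropilin through which Sema3F signals, had 34 and 23 reads at the wavefront against 31 and 30 behind it. Its scaled CPM were 54.3 and 129 against 55.6 and 59.0, so that wavefront replicate 2 was above the other 3 libraries, which were close together. The log2 fold change was 0.42 (95% interval -0.30 to 1.15, edgeR adjusted p = 0.799). Without wavefront replicate 2 it was -0.037.

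Among the A-type plexins, the signalling partners of neuropilins, Plxna1 and Plxna2 lay on opposite sides. Plxna1, which pairs with Nrp1 in the response to Sema3A (GRCm38, chromosome 6, 89316314 to 89362620), had 25 and 15 reads at the wavefront against 17 and 17 behind it, or 40.0 and 84.1 against 30.5 and 33.4 scaled CPM. Both wavefront libraries were above both trailing libraries, and the group means were 62.1 ± 31.2 and 32.0 ± 2.06 scaled CPM (SD, n = 2 each). The log2 fold change was 0.71 ± 0.42 (SE, edgeR adjusted p = 0.610).

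Plxna2 (chromosome 1, 194618218 to 194816869) had 4 and 6 reads at the wavefront against 19 and 18 behind it. In scaled CPM this was 6.39 and 33.7 against 34.1 and 35.4. Wavefront replicate 1 was far below the other 3 libraries, and wavefront replicate 2 lay only just below the trailing ones. The log2 fold change was -1.39 ± 0.58 (SE), which did not pass (edgeR unadjusted p = 0.0211, adjusted p = 0.375). It passed when wavefront replicate 2 was left out (-2.36, edgeR adjusted p = 0.0213), and without wavefront replicate 1 it was -0.067 (edgeR adjusted p = 0.986), so its value rests on 1 library. Enteric neuron markers, 10 of 10 with a read, summed to 1170 and 1044 CPM outside ribosomal RNA at the wavefront and 4755 and 5220 behind it, and their part in the Plxna2 value was not tested. With CPM taken over the reads outside ribosomal RNA, the groups overlapped, at 8.85 and 52.2 at the wavefront and 49.2 and 54.4 behind it.

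Plxna4, the A-type plexin with the most reads, had 62 and 15 reads at the wavefront and 40 and 53 behind it. Its scaled CPM of 99.1 and 84.1 lay within the trailing range of 71.8 to 104 (log2 fold change 0.08, 95% interval -0.56 to 0.73, edgeR adjusted p = 0.967). Plxna3 had 12 and 3 reads against 6 and 11, which is 19.2 and 16.8 against 10.8 and 21.6 scaled CPM, and again overlapped (log2 fold change 0.19 ± 0.61 SE, edgeR adjusted p = 0.962). As a share of all A-type plexin reads, a measure that library scaling does not touch, Plxna2 gave 3.88% (95% exact binomial interval 1.07 to 9.65%) and 15.4% (5.86 to 30.5%) at the wavefront, and 23.2% (14.6 to 33.8%) and 18.2% (11.2 to 27.2%) behind it. This share was looked at after the values of Plxna2 were seen, and the interval of wavefront replicate 2 spans both trailing shares.

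The B-type plexins, receptors of class 4 semaphorins, differed little relative to their spread. Plxnb2 had 56 and 13 reads at the wavefront against 43 and 31 behind it, or 89.5 and 72.9 against 77.1 and 60.9 scaled CPM (log2 fold change 0.26, 95% interval -0.39 to 0.92, edgeR adjusted p = 0.872). Plxnb1 had 30 and 7 reads against 38 and 20, or 47.9 and 39.3 against 68.2 and 39.3 scaled CPM (log2 fold change -0.27, 95% interval -1.03 to 0.50, edgeR adjusted p = 0.896). In both genes the groups overlapped. The receptors Plxnb3 (which binds Sema5A), Plxnc1 (which binds Sema7A) and Plxnd1 had 1 to 4 reads each over all libraries and were not tested by counts.

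Plxnd1, the receptor of Sema3E best known from blood vessels, had 2 and 2 reads at the wavefront and 0 and 0 behind it. The 95% exact binomial counting interval of the scaled read ratio, wavefront over trailing, started at 0.876, so it includes 1. It was singled out after its values were seen, and 4 reads carry little weight. All 9 endothelial markers looked at had a read somewhere, and their sum was 88.5 and 104 CPM outside ribosomal RNA at the wavefront and 67.3 and 87.7 behind it. Few markers carried this sum. Kdr, Cldn5 and Egfl7 had 15, 12 and 11 of the 40 marker reads in wavefront replicate 1, and Tek, Tie1, Esam and Emcn had reads in wavefront replicate 2 only. The part of endothelial RNA in the Plxnd1 reads was not tested.

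**Figure D2:**
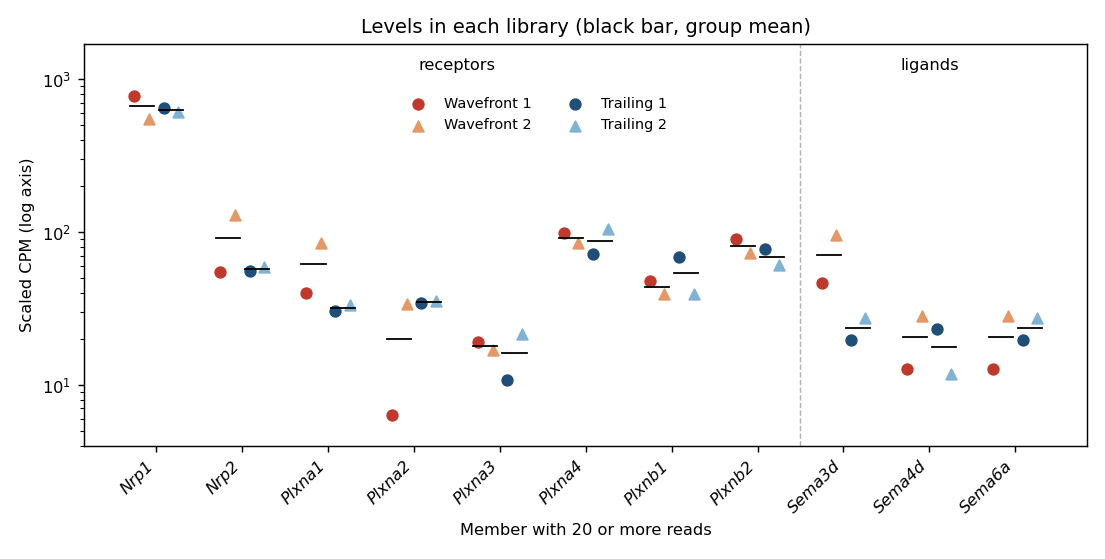
Scaled CPM (vertical axis, logarithmic) of the 11 members with 20 or more reads in each of the 4 libraries, with the group mean as a black bar. Sema3d and Plxna1 are higher in both wavefront libraries, Plxna2 is low in wavefront replicate 1, and Nrp1 stands at 550 to 777 in all 4.

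Sema3d was the ligand with the most reads and stood higher in both wavefront libraries, without passing the test. It lies on chromosome 5 (12383385 to 12588948) and encodes a secreted class 3 semaphorin. It had 29 and 17 reads at the wavefront against 11 and 14 behind it. In scaled CPM the wavefront libraries stood at 46.3 and 95.4 and the trailing libraries at 19.7 and 27.5, and the groups did not overlap on this scale, in CPM or in reads outside ribosomal RNA. The means were 70.9 ± 34.7 and 23.6 ± 5.49 scaled CPM (SD, n = 2 each), a log2 fold change of 1.36 ± 0.43 (SE, 95% interval 0.48 to 2.23). The test gave an unadjusted p of 0.00303 and an adjusted p of 0.113 (edgeR with Benjamini-Hochberg), so Sema3d did not pass over all genes. In limma the log2 fold change was 1.17 ± 0.43 (SE, adjusted p = 0.680). In the authors' deposited table its log2 fold change was 0.90, with an unadjusted p of 0.0489. It passed only with wavefront replicate 1 left out (1.98, edgeR adjusted p = 0.0133), and over the 12 alternatives of the count test the fold change lay above 0 in all 12, with adjusted p of 0.0133 to 1.000.

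The summed marker genes of gut mesenchyme stood higher at the wavefront as well, and wavefront replicate 2 was the highest library for this sum and for Sema3d. The 10 mesenchyme markers, of which 8 had a read and Myh11 and Twist1 were at 0, summed to 502 and 1296 CPM outside ribosomal RNA at the wavefront and 225 and 236 behind it. Sema3d was at 64.1 and 148 against 28.5 and 42.3 on the same scale. Wavefront replicate 2 was also the highest library on this scale for Plxna1, Nrp2, Sema4d and Sema6a. For Nrp1, Plxna2, Plxna3, Plxna4, Plxnb1 and Plxnb2 it was not. The markers did not all follow their sum. In wavefront replicate 1, Col3a1 and Des held 132 and 73 of the 227 mesenchyme reads, and Acta2 and Foxf1 were at 0. Des had 73 and 10 reads at the wavefront against 8 and 6 behind it, so its highest library was wavefront replicate 1. Gut epithelium markers, 7 of 7 with a read, had 14 and 9 reads against 4 and 3. Red blood cell markers summed to 1 and 110 reads at the wavefront and 2 and 0 behind it. The part of these cell types in the Sema3d reads was not tested.

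Within the ligands, the share of Sema3d was larger in both wavefront libraries than in both trailing libraries, with overlapping counting intervals. It gave 37.7% (95% exact binomial interval 26.9 to 49.4%) and 42.5% (27.0 to 59.1%) of all semaphorin reads there, against 16.9% (8.76 to 28.3%) and 20.9% (11.9 to 32.6%) behind it. The intervals cover counting error only and leave out the spread between libraries. They may be too narrow even for counting, since the reads carried no molecular identifiers and copies of a molecule cannot be told from separate molecules. Each wavefront interval overlapped each trailing interval. This share too was chosen with the values known, and it uses the same Sema3d reads as the fold change above. All class 3 semaphorins together gave 59.7% and 55.0% of the ligand reads at the wavefront and 30.8% and 46.3% behind it.

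**Figure D3:**
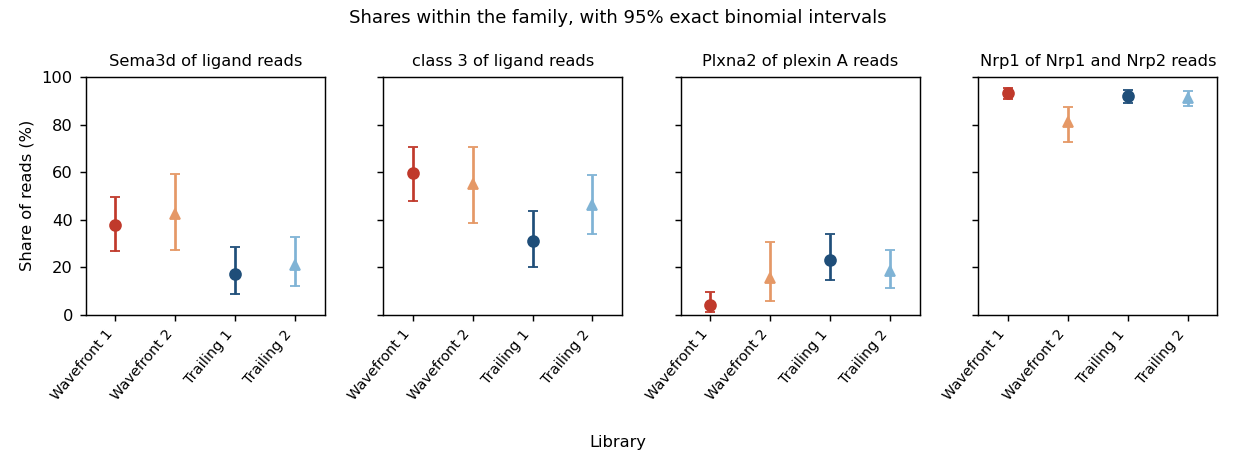
Share of reads (vertical axis, percent) of Sema3d and of class 3 semaphorins among ligands, of Plxna2 among A-type plexins and of Nrp1 among neuropilins, in each library, with 95% exact binomial intervals. The Sema3d share is 37.7% and 42.5% at the wavefront and 16.9% and 20.9% behind it.

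The other class 3 members were sparse. Sema3a, whose protein is the ligand that repels axons through Nrp1, had 11 and 2 reads at the wavefront against 2 and 2 behind it. The wavefront libraries were higher also after scaling, with 17.6 and 11.2 against 3.59 and 3.93 scaled CPM, but 11 of the 13 wavefront reads came from 1 library. The ratio of scaled reads was 4.31 (95% exact binomial counting interval 1.33 to 18.1, which leaves out the spread between libraries). The gene, which was singled out after its values were seen, had too few reads for the count test, and in limma its log2 fold change was 1.40 (95% interval -0.43 to 3.24, unadjusted p = 0.112, adjusted p = 0.733). Sema3b, Sema3c, Sema3e and Sema3f had 2 to 12 reads each over the 4 libraries, and their groups overlapped in scaled CPM.

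The membrane-bound ligands with 20 or more reads were Sema6a and Sema4d. Sema6a, a ligand of A-type plexins, had 8 and 5 reads at the wavefront against 11 and 14 behind it. Its scaled CPM of 12.8 and 28.0 spanned the trailing values of 19.7 and 27.5 (log2 fold change -0.50, 95% interval -1.66 to 0.66, edgeR adjusted p = 0.867). Sema4d, a ligand of Plxnb1, had 8 and 5 reads against 13 and 6, or 12.8 and 28.0 against 23.3 and 11.8 scaled CPM. It was below the filter of the count test, its groups overlapped, and in limma its log2 fold change was -0.12 ± 0.57 (SE, adjusted p = 0.983).

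The remaining membrane-bound ligands were Sema4a, Sema4b, Sema4c, Sema4f, Sema4g, Sema5a, Sema5b, Sema6b, Sema6c and Sema6d, with 1 to 13 reads each over the 4 libraries. Their scaled read ratios, wavefront over trailing, had counting intervals that all included 1. Summed by class, class 4 held 14 and 7 reads at the wavefront against 22 and 16 behind it, class 5 held 6 and 5 against 8 and 4, and class 6 held 11 and 6 against 15 and 16. These sums were not scaled for library depth and carry no test.

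**Figure D4:**
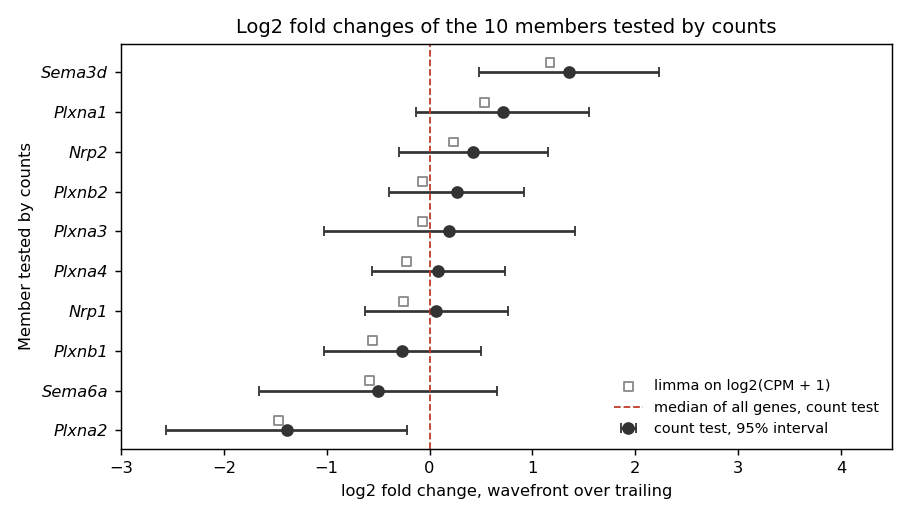
Log2 fold change, wavefront over trailing (horizontal axis), of the 10 members tested by counts, with 95% intervals (filled circles) and the limma value (open squares). The dashed line is the median of all genes tested by counts. Intervals of Sema3d (0.48 to 2.23) and Plxna2 (-2.56 to -0.22) do not reach 0, but neither gene passed after adjustment over all genes.

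Counted over the 10 members tested by counts, the scaled CPM of the groups did not overlap in 3, with Sema3d and Plxna1 higher and Plxna2 lower at the wavefront. Among all genes tested 39.3% did not overlap (19.4% higher, 19.9% lower), so this count is no result about the family. In unscaled CPM, 10 of the 26 members tested in limma did not overlap, beside 37% of all genes. Of these, 4 were higher at the wavefront (Sema3a, Sema3d, Plxna1 and Plxnd1), beside 6.86% of all genes, and 6 were lower (Sema4b, Sema4f, Sema4g, Sema6a, Plxna2 and Plxnb3), beside 30.1%. The summed receptor level was 1573 and 1583 CPM outside ribosomal RNA at the wavefront and 1446 and 1485 behind it. The summed ligand level was 170 and 348 against 168 and 203. In CPM, the receptor sums were 1309 and 699 at the wavefront and 1081 and 1086 behind it, where wavefront replicate 2 was the library with the large ribosomal share.

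Of the genes that act beside or below these receptors, 1 changed in the count test. The list of signalling genes downstream of plexins and neuropilins had 39 members, of which 19 were tested by counts: 1 fell, 0 rose and 18 did not pass, beside 1.34% of all genes that fell and 0.399% that rose. Dpysl3, a growth cone protein of the collapsin response mediator family, had 102 and 30 reads at the wavefront against 247 and 241 behind it. Its means were 166 ± 3.74 and 458 ± 21.5 scaled CPM (SD over 2 libraries), and the log2 fold change was -1.49 with an SE of 0.33 (edgeR adjusted p = 0.00459). The call was lost in 6 of 12 alternatives, with scaling by library size alone (adjusted p = 0.455), in DESeq2 (0.0613), by the authors' p-values (0.171), and without wavefront replicate 1 (0.0809), trailing replicate 1 (0.130) or trailing replicate 2 (0.174). The log2 fold changes in these 6 were -1.74, -1.48, -1.25, -1.47, -1.52 and -1.43 in that order. The enteric neuron markers given beside Plxna2 were lower at the wavefront as well, and their part in the Dpysl3 value was not tested.

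Dpysl2, the family member that mediates the response to Sema3A in chick sensory axons, had 1932 and 58 reads at the wavefront against 879 and 739 behind it. The wavefront libraries stood on either side of the trailing ones (log2 fold change 0.18 ± 0.49 SE, edgeR adjusted p = 0.952). Without wavefront replicate 1 the value was -2.24 (edgeR adjusted p = 9.59e-05) and without wavefront replicate 2 it was 1.07, so single wavefront libraries decide it. Cfl1, the actin-severing protein cofilin, had 661 and 75 reads against 421 and 434 (log2 fold change -0.11, edgeR adjusted p = 0.962). The median over the 19 tested genes was -0.02, and 4 of them had an unadjusted p under 0.05, beside 9.9% of all genes.

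In the list of other semaphorin receptors and partners, 8 of 19 genes were tested by counts and 0 passed, with 3 at an unadjusted p under 0.05 (2 higher, Itgb1 and Ptk7, and 1 lower, L1cam, beside 9.9% of all genes) and a median log2 fold change of 0.18. Itgb1, the integrin beta chain through which Sema7A signals, had 427 and 94 reads at the wavefront against 211 and 159 behind it (log2 fold change 0.80 ± 0.33 SE, edgeR adjusted p = 0.375). Bsg, the membrane glycoprotein basigin, had 183 and 41 against 219 and 176 (-0.50 ± 0.32 SE, edgeR adjusted p = 0.678). The VEGF ligands of neuropilins were too low for the count test, with Vegfa at 1 and 1 reads against 2 and 0 and Vegfb at 1 and 0 against 1 and 2. Of 7 proteases that process or shed semaphorins, 4 were tested by counts and 0 passed, also with 0 at an unadjusted p under 0.05 and a median of 0.13. The shedding protease genes Adam10 and Adam17 had 44 and 13 against 31 and 33 reads and 32 and 16 against 18 and 21 reads, with log2 fold changes of 0.22 ± 0.33 and 0.76 ± 0.39 (SE, edgeR adjusted p = 0.903 and 0.524). Limma called 0 genes of these 4 lists, with 14, 35, 2 and 7 tested in the order partners, downstream genes, VEGF ligands and proteases. In the same order 2, 3, 0 and 1 had an unadjusted p under 0.05 in limma, beside 6.85% of all genes tested in limma.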

How the data were processed

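RNA of sorted crest derivatives was sequenced from Nextera XT libraries, which do not keep the strand, per the labels' protocols. The submitters' processing notes list STAR 2.5.2b and featureCounts with build GRCm38, and DESeq2, bcl2fastq 2.17 and FastQC 0.11.9, and the annotation release and counting settings were not given in the sources used here.

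Per library, the authors deposited CPM, per the file headers, and, for their comparison, a mean signal (BaseMean), a log2 fold change with its standard error, a Wald statistic (a score) and an unadjusted p-value. All CPM values (100%, within 0.01 reads) were whole multiples of 1 read, which is worth 1.84 and 3.84 CPM at the wavefront and 1.93 and 2.21 CPM behind it, so whole reads were recovered. After 428 repeated rows were dropped, 27178 of 27606 rows remained, of which 958 had no symbol and were kept. Exon lengths and positions are from GENCODE M21 (GRCm38). Exons of 7 members overlap another annotated gene, Plxna1 by 970 bases with Gm26811, and such reads cannot be told apart without strand. For Nrp1, Plxnc1 and Sema4a the overlapping gene is on the same strand, so strand would not separate those reads either.

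The family, its members and the pathway lists were chosen with earlier results of these data known. The planned test was limma 3.58.1 with a trend, run on log2(CPM + 1) where the mean CPM exceeded 1. The count test, edgeR 4.0.16 (TMM, filterByExpr with 10 reads), was run on the recovered reads, with DESeq2 1.42.0 as an alternative, under R 4.3.3; SEs and intervals were derived from its F statistics. Fold changes on the log2(CPM + 1) scale understate changes of low genes. Tests are two-sided, adjusted by Benjamini-Hochberg over all genes tested, with a threshold of 0.05. Fits used the 4 libraries with location as the only term, apart from those named as leaving out a library or adding a replicate block. Both tests were also run on simulated counts with the same spread for every gene. The simulation did not model the ribosomal share of single libraries, so it does not show how the tests do on these libraries. Members with 20 or more reads are given in full; of the pathway lists the text names genes past the threshold and the 2 with the most reads.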

Additional observations from a re-analysis of the deposited data

How the results depend on the processing

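Depth is one limit, since 20 of the 31 members had fewer than 20 reads, and 2 libraries a group is another, since leaving 1 out turned the direction of genes with many reads (Nrp1, Dpysl2). The count of members called was 0 in limma under all 12 alternatives and in the count test under 10 of 12, and 0 to 1 with 1 library left out (Sema3d without wavefront replicate 1, Plxna2 without wavefront replicate 2). Over all genes, limma called 3 with a pseudocount of 5, 5 with no filter, 36 above a mean CPM of 10, 9 with TMM factors, 9 with DESeq2 size factors, 4 with ribosomal RNA out, and 0 with any 1 library left out. The count test called 100, against 13 in DESeq2, 13 by the authors' p-values and 40 to 143 with 1 library left out, where the lone library is assumed to vary like those of the other group. Same-numbered libraries deviated together only weakly (correlation 0.0592 over 5759 genes). With 2 libraries a group, each position gives only 1 difference between its libraries. The correlation therefore cannot show whether same-numbered libraries were paired. With the replicate block limma called 52 genes and the count test 61, and 0 members in either. The cause of these shifts was not tested.

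The summed ligands differed by 0.11 on the log2 scale in CPM, 0.42 with TMM factors, 0.40 with ribosomal RNA out, and -0.32 without Sema3d. Directions turned for these genes, none past the threshold unless stated. In limma with TMM factors, DESeq2 size factors and ribosomal RNA out, the log2 fold changes were 0.15, 0.16 and 0.16 for Sema4d, 0.020, 0.032 and 0.029 for Nrp1, 0.19, 0.20 and 0.20 for Plxna3, 0.045, 0.057 and 0.054 for Plxna4, 0.20, 0.21 and 0.21 for Plxnb2, and 0.22, 0.23 and 0.23 for Adam10, each below 0 in CPM. With 1 library left out limma ranged from -0.55 to 0.32 for Sema4d, -0.88 to 0.37 for Nrp1, -0.011 to 0.48 for Nrp2, -0.57 to 0.43 for Plxna3, -0.71 to 0.26 for Plxna4, -0.59 to 0.44 for Plxnb2, -0.069 to 1.05 for Itgb1, -2.90 to 1.09 for Dpysl2, -1.61 to 0.46 for Cfl1, -0.39 to 1.89 for Vegfa and -0.40 to 0.29 for Adam10. The count test ranged from -0.83 to 0.23 for Sema6a, -0.22 to 0.34 for Nrp1, -0.037 to 1.14 for Nrp2, -0.22 to 0.75 for Plxna3, -0.15 to 0.37 for Plxna4, -0.60 to 0.21 for Plxnb1, -0.96 to 0.43 for Cfl1 and -2.24 to 1.07 for Dpysl2 (edgeR adjusted p = 9.59e-05 at the low end). Scaled by library size alone, Nrp1 was at -0.14 and Plxna4 at -0.15. With the replicate block Dpysl2 was at -0.47.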

Other observations

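Several members lie close together on the GRCm38 genome. Sema3d, Sema3a, Sema3e and Sema3c are all on the plus strand of chromosome 5, in that order, starting at 12383385, 13125414, 14025276 and 17574281. Their reads over the 4 libraries were 71, 17, 2 and 12. Of these neighbours, Sema3d and Sema3a had higher scaled CPM in both wavefront libraries than in both trailing libraries, and Sema3e and Sema3c overlapped. Among all genes tested by counts, 19.4% were higher in this way. Sema3d was the only neighbour among the genes tested by counts, so this share is no background for the others. No result about the neighbours is drawn. Neither Sema3d nor Sema3a passed a test, and Sema3a had only 2 reads in wavefront replicate 2 and in each trailing library. Sema3b and Sema3f lie on the minus strand of chromosome 9, with lowest coordinates of 107597674 and 107681500. Wavefront against trailing, they had 4 and 0 against 3 and 4 reads and 0 and 1 against 1 and 4 reads. The X-linked plexins Plxna3 and Plxnb3 had 32 and 2 reads.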
